A study of Rattus norvegicus with 4 samples.

Results

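The proteasome subunit genes of rat skeletal muscle are described here, taken as every gene whose symbol is Psma, Psmb, Psmc, Psmd, Psme, Psmf or Psmg followed by a number. The array named 44 of the 48 such genes of the rat RefSeq table, among 26624 genes or unnamed accessions in all. Of these 44, 43 were well above background on all 4 arrays. The exception was Psma8, an outer ring subunit known from the testis, which was not well above background on any array with any of its 3 probes. Psmb11, Psmd11, Psmg1 and Psmg3 had no probe matched by accession and were not analysed here.

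Muscle RNA of male rats aged 15 weeks was hybridised to 4 one-colour arrays. Wild-type (WT) Wistar rats, sedentary by the design text, gave 2 arrays, while SPORTS, a hyperactive mutant rat on the Wistar background, gave 1 array of an exercised and 1 of a sedentary animal. The labels do not name the muscle, the kind of exercise, or the animal behind each WT array, so p-values reflect the scatter of these arrays alone, which may be technical. The 4 arrays shared 1 slide, and the exercised SPORTS array had the lowest median processed signal, 59.3 against 86.5 to 87.9 on the others.

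The proteasome degrades proteins tagged with ubiquitin. Its barrel-shaped core, the 20S particle, has outer rings of alpha subunits (Psma), which form the gate, and inner rings of beta subunits (Psmb), of which Psmb5, Psmb6 and Psmb7 carry the standard catalytic sites. The 19S regulatory particle caps the core: ATPases (Psmc) in its base unfold substrates, and non-ATPase subunits (Psmd) of base and lid bind ubiquitin and remove it. After interferon, Psmb8, Psmb9 and Psmb10 take the places of Psmb5, Psmb6 and Psmb7 in newly made cores, giving the immunoproteasome, which is known for making peptides for MHC class I and is abundant in blood-derived cells. In muscle the proteasome is known as the main route by which myofibrillar proteins are broken down in atrophy.

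Promoter windows of 6 members on which the results turn are shown first, the immunoproteasome genes and Psme2 because interferon is known to induce them, Psme4 because it rose most and Psmb5 as a standard catalytic subunit. Sequences are from RefSeq, assembly GRCr8, which held windows for 40 of the 44 members, and each runs from 250 bases before to 20 after the start of the gene. In the first 4, capitals mark matches to the interferon motifs GAS (TTCNNNGAA, its own reverse complement) and the core of the interferon-stimulated response element (GAAA, then 2 bases of any kind, then GAAA, searched on both strands). In the last 2, capitals mark the core of the antioxidant response element (TGACNNNGC, or GCNNNGTCA), at which the Nfe2l1 and Nfe2l2 proteins are known to bind.
Psmb8, minus strand of chr20:4657012-4657281: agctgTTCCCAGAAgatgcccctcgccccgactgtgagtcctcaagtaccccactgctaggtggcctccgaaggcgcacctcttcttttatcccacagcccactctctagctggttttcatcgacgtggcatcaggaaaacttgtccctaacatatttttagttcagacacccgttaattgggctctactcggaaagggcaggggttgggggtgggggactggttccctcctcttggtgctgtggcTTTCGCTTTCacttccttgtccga
Psmb9, plus strand of chr20:4668750-4669019: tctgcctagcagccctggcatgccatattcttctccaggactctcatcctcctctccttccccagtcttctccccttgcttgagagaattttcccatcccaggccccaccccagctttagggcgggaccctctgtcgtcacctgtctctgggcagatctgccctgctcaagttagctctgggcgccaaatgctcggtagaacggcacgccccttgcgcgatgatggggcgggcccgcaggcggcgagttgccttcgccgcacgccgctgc
Psmb10, minus strand of chr19:50743273-50743542: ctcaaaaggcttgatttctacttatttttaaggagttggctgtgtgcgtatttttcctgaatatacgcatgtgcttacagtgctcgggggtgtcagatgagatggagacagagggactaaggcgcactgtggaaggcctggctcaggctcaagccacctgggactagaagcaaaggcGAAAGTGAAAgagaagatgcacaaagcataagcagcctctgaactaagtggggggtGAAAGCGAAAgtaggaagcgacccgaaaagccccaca
Psme2, minus strand of chr15:33052732-33053001: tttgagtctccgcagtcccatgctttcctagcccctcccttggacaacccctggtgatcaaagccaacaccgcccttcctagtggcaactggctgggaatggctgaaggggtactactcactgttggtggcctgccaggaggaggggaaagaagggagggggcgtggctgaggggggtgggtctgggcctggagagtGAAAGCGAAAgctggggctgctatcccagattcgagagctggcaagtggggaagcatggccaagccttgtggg
Psme4, plus strand of chr14:108706393-108706662: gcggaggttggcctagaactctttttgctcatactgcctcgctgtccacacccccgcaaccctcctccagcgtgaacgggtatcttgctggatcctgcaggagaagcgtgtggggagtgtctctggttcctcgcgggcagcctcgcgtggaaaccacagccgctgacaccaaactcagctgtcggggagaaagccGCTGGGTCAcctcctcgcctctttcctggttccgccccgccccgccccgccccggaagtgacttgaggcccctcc
Psmb5, minus strand of chr15:32047360-32047629: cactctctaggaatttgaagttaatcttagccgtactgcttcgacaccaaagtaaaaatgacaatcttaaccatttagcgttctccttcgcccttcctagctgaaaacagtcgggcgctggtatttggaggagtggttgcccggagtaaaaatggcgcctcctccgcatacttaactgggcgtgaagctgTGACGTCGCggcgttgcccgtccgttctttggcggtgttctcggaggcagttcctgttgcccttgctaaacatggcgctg

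Psmb10 held 2 matches to the interferon response core, which began 73 and 17 bases before the start. Psmb8 and Psme2 held 1 each, beginning 4 and 53 bases before the start, and Psmb8 also held a GAS match. None of the marked matches overlapped another. The window of Psmb9 held neither motif, nor did that of Psme1, the partner of Psme2, which is not shown. Over whole windows of 300 bases, 7 of the 40 member genes held the response core, against 3.92% of 33469 windows. Besides Psmb8, Psmb10 and Psme2 these were Psma4, Psmb3, Psmd7 and Psmg4. GAS was held by 4, against 8.87% of windows, namely Psmb8, Psmc6, Psmd3 and Psmd7. Neither motif was thus confined to the genes known to be induced by interferon. The antioxidant core was found in 8 of the 40, against 12.1% of windows. These matches are a description of letters and not of bound sites.

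The immunoproteasome genes were higher on both SPORTS arrays than on both WT arrays, Psmb8 and Psmb9 more so on the sedentary array and Psmb10 on the exercised one. All values below are log2 of the processed signal relative to the 75th percentile of each array, so they are compared between arrays and not between genes. Psmb8, the chymotrypsin-like immunosubunit, read -0.72 and -0.67 on WT arrays 1 and 2, 0.26 on the sedentary SPORTS array and -0.37 on the exercised one. Psmb9, which replaces Psmb6, read 0.18 and 0.16 on the WT arrays, 0.88 on the sedentary and 0.29 on the exercised SPORTS array. Psmb10, which replaces Psmb7, read 1.95 and 1.93 on the WT arrays, 2.48 on the sedentary and 2.73 on the exercised SPORTS array. For Psmb8 and Psmb9 the sedentary SPORTS array was the highest of the 4, and for Psmb10 the exercised one was, while the WT arrays lay close together and below both.

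With both SPORTS arrays set against both WT arrays (limma, adjusted by the Benjamini-Hochberg method over 13324 genes tested), the differences were 0.67 ± 0.16 for Psmb10, 0.64 ± 0.27 for Psmb8 and 0.41 ± 0.26 for Psmb9, where ± is the standard error of the fit. None passed (adjusted p = 0.571, 0.747 and 0.768). Of the 43 members none passed in either direction, as for all genes (0% called). At an unadjusted p under 0.05 there was 1 member, Psmb10, and 7.36% of all genes.

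The next highest differences of SPORTS against WT belonged to Psmd10, the base assembly chaperone also called gankyrin, with 0.40 ± 0.15, and to the standard catalytic subunit gene Psmb6 with 0.33 ± 0.24. Psmd10 read 0.70 and 0.67 on the WT arrays, 1.19 on the sedentary and 0.97 on the exercised SPORTS array. Both SPORTS arrays again lay above both WT arrays. The lowest differences were -0.27 ± 0.31 for the base assembly chaperone gene Psmd9, -0.26 ± 0.14 for the core assembly chaperone gene Psmg4 and -0.22 ± 0.14 for the lid subunit gene Psmd8. Psmd9 and Psmg4 hold these places by 1 probe each: their second probes gave 0.41 and 0.31, and the mean of all probes 0.074 and 0.024. Next came Psme3 and Psmd5, each at -0.14.

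Both SPORTS arrays lay above both WT arrays for 13 of the 43 members, against 21.4% of all genes tested, and below both for 4, against 22.3%. The 13 were the 3 immunoproteasome genes, Psma1, Psma2, Psma5, Psmb1, Psmb2, Psmb4, Psmb5, Psmb6, Psmd10 and Psme2. All of the 13 but the immunoproteasome genes, Psmd10 and Psme2 belong to the standard 20S core. The 4 below were Psmd5, Psmd8, Psmf1 and Psmg4, the last by 1 of its probes only. Without the sedentary array 35 members lay above and 7 below, without the exercised array 15 and 19, and with scaling by the median 18 and 1.

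For 15 members the exercised array lay above and the sedentary array below both WT arrays, and for 2 the reverse held, against 19.4% and 18.2% of all genes. Both WT arrays agreed closely for the members: the largest gap between them was 0.11, and 0 members were at least 1.5-fold apart, against 3.46% of all genes.

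**Figure D1:**
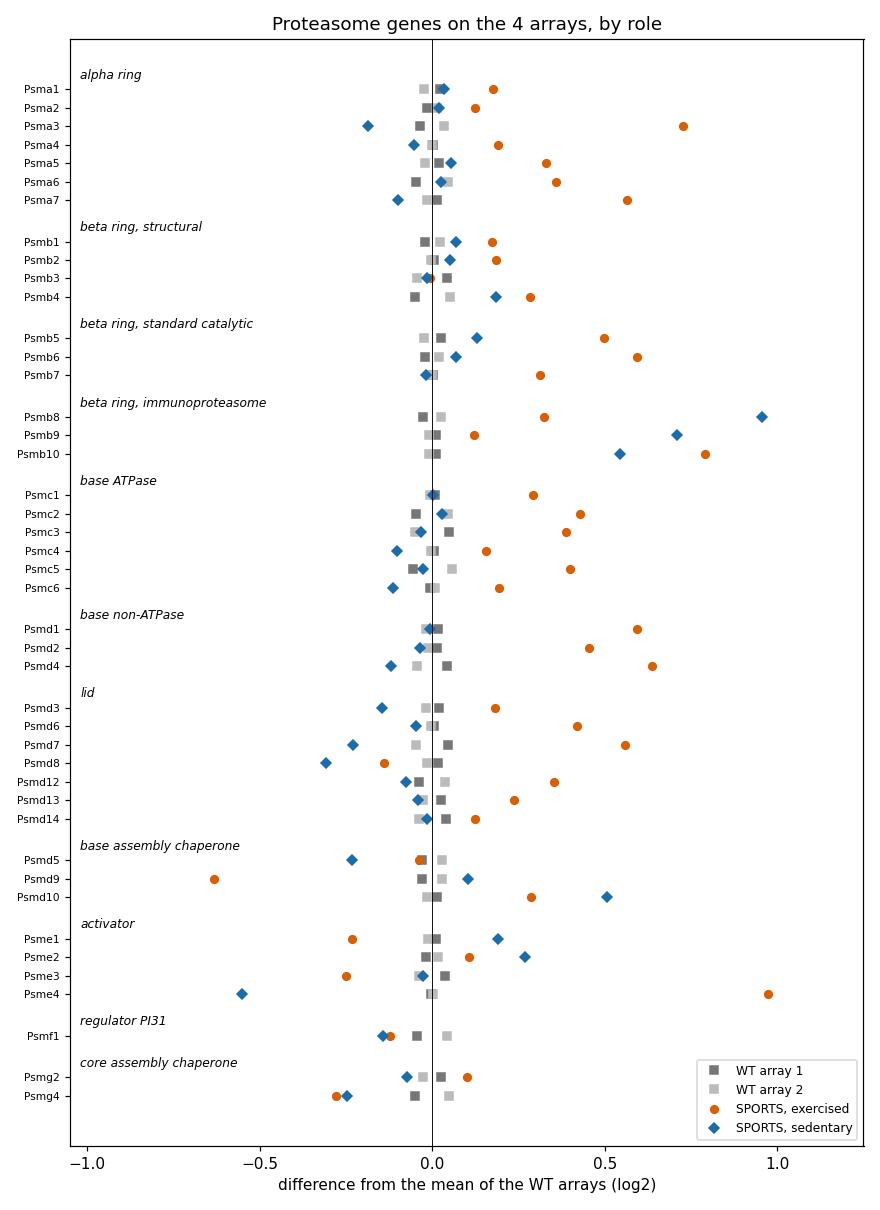
Difference of each array from the mean of the WT arrays (log2, horizontal axis) for the 43 members well above background, grouped by role; squares are WT arrays, circles the exercised and diamonds the sedentary SPORTS array. Most circles of the alpha ring, the base and the lid lie to the right of the squares, while the diamonds lie within 0.31 of the WT mean except for Psmb8, Psmb9, Psmb10, Psmd10 and Psme4.

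Against WT, 2 members passed on the sedentary SPORTS array, the immunoproteasome genes Psmb8 and Psmb9. Both are sedentary by the design text. Only the WT pair gave an estimate of scatter here and for the exercised array, so each lone SPORTS array was assumed to vary like that pair. Psmb8 rose by 0.96 ± 0.07 (adjusted p = 0.0385) and Psmb9 by 0.71 ± 0.06 (adjusted p = 0.0445, limma, 3-group fit), or 1.94-fold and 1.63-fold. Psmb10 differed by 0.54 ± 0.06 and missed the threshold (adjusted p = 0.0519), as did Psmd10 with 0.51 ± 0.06 (adjusted p = 0.0538). Of 43 members, 2 were thus called higher, or 4.65%, near the 2.95% of all genes tested, and 0 lower, against 3.56%. When only genes detected on all 4 arrays were tested, Psmb10, Psmd10 and Psme4 passed as well (adjusted p = 0.0281, 0.0296 and 0.0276), as they did with normexp and with a variance trend. With no filter on dim genes, neither Psmb8 nor Psmb9 passed (adjusted p = 0.0902 and 0.106).

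Psme1 and Psme2 encode the PA28 activator, which opens the core for peptide production and is also known to be induced by interferon. Psme2 read 3.97 and 3.999 on the WT arrays, 4.25 on the sedentary and 4.09 on the exercised SPORTS array, a difference of 0.27 ± 0.06 for the sedentary array (adjusted p = 0.104). Psme1 read 4.49 and 4.47 on the WT arrays, 4.67 on the sedentary and 4.24 on the exercised SPORTS array. Its differences from WT were 0.19 ± 0.06 and -0.23 ± 0.06, neither past the threshold. Thus the exercised array was the lowest of the 4 for Psme1, though not for Psme2. By the RefSeq table the pair lies on chromosome 15 with 1 gene between, and Psmb8 and Psmb9 lie on chromosome 20 on either side of Tap1.

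On the lower side, the sedentary array differed from WT by -0.55 ± 0.06 for Psme4 (adjusted p = 0.0511) and by -0.31 ± 0.06 for Psmd8. The differences were -0.25 for Psmg4 and -0.23 for both Psmd5 and Psmd7, the latter a lid subunit that pairs with the deubiquitinase Psmd14. None of these passed. The 30 standard members of the 26S particle, which are the alpha ring, the beta ring without the immunosubunits, the ATPases and the other base and lid subunits, stayed near WT. Their median was -0.02, their range -0.31 to 0.18, and none was called.

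Macrophage markers and some interferon genes were also high on the sedentary array. The median difference of 9 macrophage and monocyte markers was 0.96, with none called. Their summed signal, in units of the 75th percentile signal of each array, reached 52.6 and 36.3 in WT, 82.1 on the sedentary and 17.7 on the exercised SPORTS array. Of 11 lymphocyte markers 4 were tested, and Cd3e, Cd3g, Cd8a and Cd79b were not well above background on any array, with a summed signal of 0.5 to 0.6 on every array. On the exercised array, where macrophage markers were lowest, Psmb10 was at its highest, 0.25 above the sedentary array. Psmb8 and Psmb9 differed the other way between these arrays, by -0.63 and -0.59, as the macrophage markers did. Against WT, the exercised array read 0.32 higher for Psmb8 and 0.12 higher for Psmb9, while the median of the macrophage markers was -1.43. The part of these cells in the immunoproteasome levels was not tested, and in bulk tissue more cells of a type cannot be told apart from more RNA per cell.

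Among 11 interferon signal genes tested, 3 rose on the sedentary array and none fell, namely Irf7, Isg15 and Mx1, the transcription factor, ubiquitin-like modifier and antiviral GTPase of that response. Irf7 read -0.13 and -0.11 on the WT arrays, 2.70 on the sedentary and 2.002 on the exercised SPORTS array. Both SPORTS arrays thus lay far above WT, with the sedentary one higher, the order also seen for Psmb8 and Psmb9. In the class I presentation list 0 of 7 genes passed on the sedentary array, with a median of 0.19. B2m, the light chain of class I molecules, differed by 0.56 (adjusted p = 0.0573).

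On the exercised SPORTS array 17 of the 30 standard 26S members rose against WT and none fell, with a median of 0.32. Over all members, 21 rose and 1 fell of 43, against 27.3% of all genes higher and 26% lower. The members' median was 0.28, with quartiles at 0.12 and 0.42, against 0.00 for all genes tested. The members also varied less than genes at large, with an SD of 0.31 across members and 0.99 across all genes. The exercised array shares its WT arrays with the sedentary comparison, so the comparisons are not independent.

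How far the 43 members, standard or not, stood above WT on the exercised array depended on the scaling. Quantile normalization gave 10 members higher and 4 lower with a median of 0.12, and cyclic loess, tried after seeing the data, gave 12 and 3 with a median of 0.15. Scaling by the median of each array, which raised the median of all genes on the exercised array by 0.23, gave 35 and 1. With no filter on dim genes the counts were 6 and 1.

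**Figure D2:**
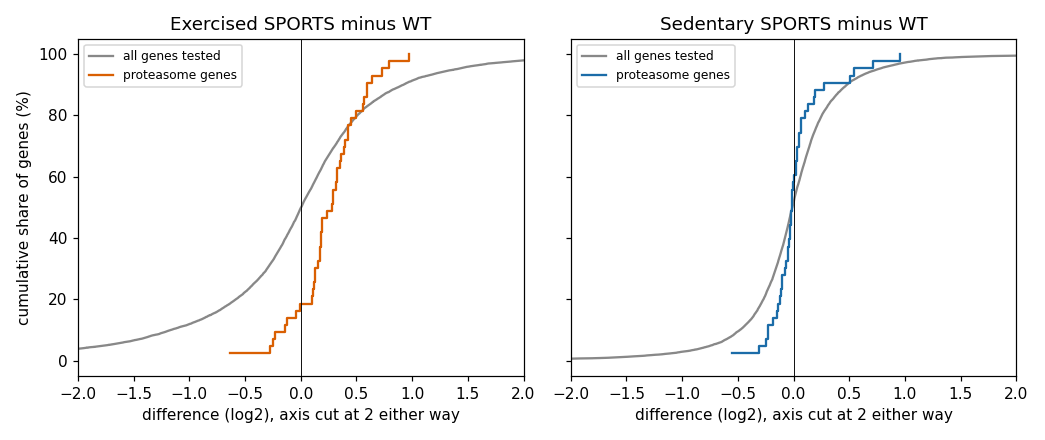
Cumulative share of genes (vertical axis, %) by difference from WT (log2, horizontal axis, cut at 2 either way) for the exercised array (left) and the sedentary array (right), with all 13324 genes tested in grey and the 43 members in colour. The members' curve lies to the right of the grey one up to about the upper quartile on the exercised array, and is steep around 0 on the sedentary array.

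Of the 7 alpha ring genes measured, 4 rose on the exercised array. Psma3 read 0.45 and 0.52 on the WT arrays, 0.30 on the sedentary and 1.21 on the exercised SPORTS array, and rose by 0.73 ± 0.07 (adjusted p = 0.0112, limma). Psma7 read 4.71 and 4.68 on the WT arrays and 5.26 and 4.59 on the exercised and sedentary ones, and rose by 0.57 ± 0.06 (adjusted p = 0.0138). For both genes the exercised array was the highest and the sedentary array the lowest of the 4. Psma6 read 5.33 and 5.42 on the WT arrays, 5.40 on the sedentary and 5.73 on the exercised one, and rose by 0.36. Psma5 read 3.23 and 3.19 on the WT arrays, 3.26 on the sedentary and 3.54 on the exercised one, and rose by 0.33. In both the exercised array stood apart from the other 3. The other 3, Psma1, Psma2 and Psma4, differed by 0.13 to 0.19 and did not pass, so all 7 lay above 0 but unequally.

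In the beta ring, none of the 4 structural subunits Psmb1, Psmb2, Psmb3 and Psmb4 passed on the exercised array, with a range of -0.01 to 0.28. Psmb3 had the smallest difference of all members on that array, reading 4.26 and 4.18 on the WT arrays, 4.20 on the sedentary and 4.21 on the exercised SPORTS array. All 3 standard catalytic genes rose. Psmb5, the chymotrypsin-like subunit and main target of proteasome inhibitor drugs, read 4.65 and 4.60 on the WT arrays, 4.76 on the sedentary and 5.13 on the exercised SPORTS array. Psmb6, the caspase-like subunit, read 3.47 and 3.51 on the WT arrays, 3.56 on the sedentary and 4.08 on the exercised one. Psmb7, the trypsin-like subunit, read 4.05 on both WT arrays, 4.04 on the sedentary and 4.37 on the exercised one. Their rises were 0.50 ± 0.07, 0.59 ± 0.07 and 0.31 ± 0.06 (adjusted p = 0.0186, 0.0133 and 0.0371), and in each case the exercised array stood clear of the other 3.

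In the base of the 19S particle, 4 of 6 ATPase genes and all 3 non-ATPase genes rose on the exercised array. Psmc2 read 5.05 and 5.15 on the WT arrays, 5.13 on the sedentary and 5.53 on the exercised SPORTS array, and rose by 0.43. Psmc5 read 6.07 and 6.18 on the WT arrays, 6.10 on the sedentary and 6.53 on the exercised one, and rose by 0.40. For both ATPases the sedentary array lay between the WT arrays. Psmc3 read 3.41 and 3.31 on the WT arrays, 3.33 on the sedentary and 3.75 on the exercised one, and rose by 0.39. Psmc1 read 3.61 and 3.59 on the WT arrays, 3.601 on the sedentary and 3.89 on the exercised one, and rose by 0.29. These too had the sedentary array between the WT arrays and the exercised array above all. Psmc6 and Psmc4 differed by 0.19 and 0.16 and did not pass. Psmd4, which encodes a ubiquitin receptor, read 4.37 and 4.28 on the WT arrays, 4.21 on the sedentary and 4.96 on the exercised SPORTS array, and rose by 0.64 ± 0.08 (adjusted p = 0.0154). Psmd1, a large scaffold subunit, read 5.57 and 5.54 on the WT arrays, 5.55 on the sedentary and 6.15 on the exercised one, and rose by 0.59 ± 0.06 (adjusted p = 0.0130). Its partner scaffold Psmd2 read 5.17 and 5.14 on the WT arrays, 5.12 on the sedentary and 5.61 on the exercised one, and rose by 0.45. The exercised array was again the highest in each case. The sedentary array lay within 0.12 of WT for all 9 base genes.

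In the lid, 3 of 7 genes measured rose on the exercised array. Psmd7 read 2.95 and 2.86 on the WT arrays, 2.68 on the sedentary and 3.47 on the exercised SPORTS array, and rose by 0.56 ± 0.08 (adjusted p = 0.0199). Psmd6 read 4.17 and 4.16 on the WT arrays, 4.12 on the sedentary and 4.59 on the exercised one, and rose by 0.42. Psmd12 read 4.60 and 4.67 on the WT arrays, 4.56 on the sedentary and 4.99 on the exercised one, and rose by 0.35. Both were measured on probes with 10 spots per array, and in both the sedentary array was the lowest. Psmd8 went the other way without passing, reading 3.01 and 2.98 on the WT arrays, 2.68 on the sedentary and 2.85 on the exercised one. It was the only lid gene below both WT arrays on both SPORTS arrays, and with scaling by the median its exercised difference of -0.14 became 0.09. The deubiquitinase gene Psmd14 differed by 0.12 and did not pass.

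Psme4 encodes PA200, an activator that caps the core without ATP and is known for acetylated histones and chromatin. It had the largest rise of the members on the exercised array, 0.97 ± 0.06 or 1.96-fold (adjusted p = 0.00628). Its values were 2.25 on both WT arrays, 1.70 on the sedentary and 3.22 on the exercised SPORTS array. The second probe, the mean of 10 spots per array with a spot SD of 0.03 to 0.04, gave 0.89 for the exercised and -0.52 for the sedentary array, against -0.55 by the first. Thus the SPORTS arrays lay on opposite sides of WT by both probes. Psme3, the nuclear PA28 gamma subunit, read -0.02 and -0.09 on the WT arrays, -0.08 on the sedentary and -0.30 on the exercised one, a difference of -0.25 ± 0.07 for the exercised array (adjusted p = 0.0766).

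Among assembly and regulator genes, 1 rose and 1 fell on the exercised array. Psmd9 read 1.54 and 1.60 on the WT arrays, 1.67 on the sedentary and 0.94 on the exercised SPORTS array. It was the 1 member that fell there, by 0.63 ± 0.07 (adjusted p = 0.0129), but a second probe gave 0.50, so its direction is unsettled. The probes of Psmg4 disagreed as well, with -0.28 and 0.17 for the exercised array and -0.25 and 0.45 for the sedentary one. Psmd10 rose by 0.29 ± 0.06 on the exercised array (adjusted p = 0.0457). Psmg2, a core assembly chaperone, differed by 0.10 and Psmf1, which encodes the regulator PI31, by -0.12, and neither passed. Psmb10 and Psmb8 also rose on this array, by 0.79 ± 0.06 and 0.32 ± 0.07 (adjusted p = 0.00822 and 0.0405), while Psmb9 differed by 0.12 ± 0.06 (adjusted p = 0.210).

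Between the SPORTS arrays, which by their labels differ in exercise, all 30 standard 26S members read higher on the exercised array, where 52.3% of all genes tested did. With quantile normalization it was 24 of the 30 and with cyclic loess 28. With 1 array on either side there is no replicate check, and no p-value is given. The median of the 30 was 0.33, with a range of 0.01 to 0.91. Among all 43 members, 6 were at least 1.5-fold higher on the exercised array, against 18.6% of all genes, and 3 at least 1.5-fold lower, against 21.3%. With scaling by the median these counts were 13 and 0, and with quantile normalization 4 and 2. The differences of the members were thus mostly shared in direction but small beside those of other genes, of which 21.9% were at least 2-fold apart in either direction, against 1 member, Psme4.

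The highest differences between the SPORTS arrays were 1.52 for Psme4, 0.91 for Psma3, 0.79 for Psmd7, 0.75 for Psmd4 and 0.67 for Psma7. The lowest were -0.74 for Psmd9, by the probe used and not by its second, -0.63 for Psmb8, -0.59 for Psmb9, -0.42 for Psme1 and -0.22 for Psme3. The interferon-induced pair Psmb8 and Psmb9 and the standard 26S genes therefore differed in opposite directions, whereas Psmb10 read 0.25 higher on the exercised array.

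Fibre type genes differed far more between these arrays, and the labels do not name the muscle. Summed over 7 fast fibre genes, the signal reached 706.4 and 709.2 in WT, 2402 in exercised and 185.2 in sedentary SPORTS. Over 6 slow fibre genes it reached 1752 and 1701 in WT and, in SPORTS, 1621 on the sedentary and 362.5 on the exercised one. General muscle genes were bright on every array: Ckm, the muscle creatine kinase gene, read from 8.17 to 8.93 and Acta1, the skeletal actin gene, from 7.99 to 8.43. Fibroblast markers summed to 160.2 and 153.8 on the WT arrays, 123.6 on the sedentary and 45.3 on the exercised one. The part of fibre type and cell content in the proteasome differences was not tested.

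The standard and immunoproteasome subunits were next compared within each array, as the log2 ratio of each immunosubunit to the subunit it replaces. Since probes differ in brightness, only the change of this ratio between arrays can be read. Psmb8 over Psmb5 stood at -5.37 and -5.27 on the WT arrays, -4.50 on the sedentary and -5.50 on the exercised SPORTS array. Psmb9 over Psmb6 stood at -3.29 and -3.35 on the WT arrays, -2.68 on the sedentary and -3.79 on the exercised one. For these pairs the sedentary array was the highest and the exercised array the lowest of the 4. Psmb10 over Psmb7 stood at -2.10 and -2.12 on the WT arrays, -1.55 on the sedentary and -1.63 on the exercised one, so both SPORTS arrays were higher than WT.

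**Figure D3:**
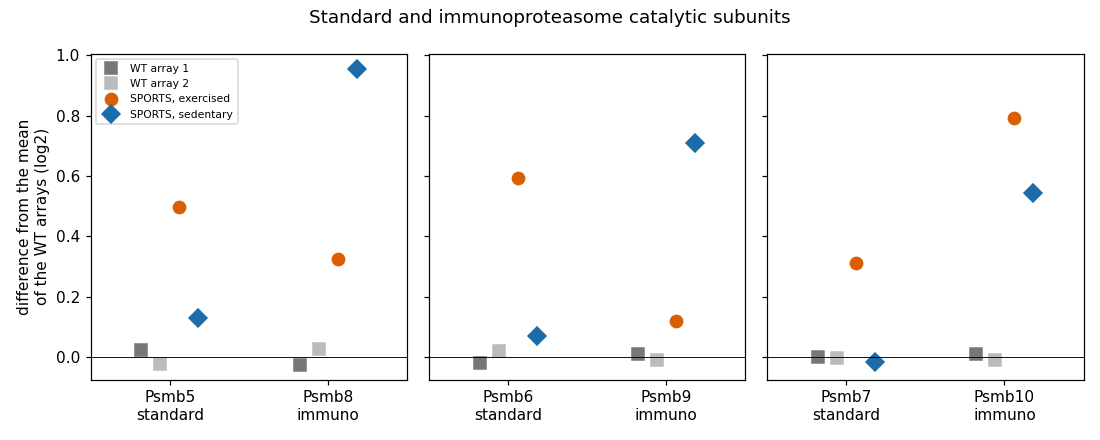
Difference from the mean of the WT arrays (log2, vertical axis) for each standard catalytic subunit gene and the immunosubunit gene that replaces it, with 1 point per array. On the sedentary SPORTS array (diamonds) the immunosubunits lie at 0.54 to 0.96 and the standard subunits at -0.02 to 0.13, while on the exercised array (circles) both kinds lie above WT.

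The ratios of all 3 pairs were higher than WT on the sedentary array, by 0.83, 0.64 and 0.56 for the pairs of Psmb8, Psmb9 and Psmb10. On the exercised array they differed from WT by -0.17, -0.47 and 0.48. The mean over the 3 pairs was 0.68 above WT on the sedentary and -0.06 on the exercised array, the latter 0.09 with quantile normalization and 0.01 with cyclic loess. SPORTS against WT gave 0.33, 0.08 and 0.52 (exact permutation test, two-sided, p = 1, 1 and 0.333, or 1 for each when adjusted over the 3 pairs, 2 arrays against 2). The smallest p this design allows is 0.333, so no difference of these ratios could pass.

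Other genes of the ubiquitin-proteasome pathway were taken from 7 lists, with 55 genes tested. In SPORTS against WT none of the 55 passed by limma. On the sedentary array 4 rose and none fell, against the background of 2.95% and 3.56% given above. These were the 3 interferon genes and Ubqln4, a shuttle of ubiquitinated proteins, at 0.79. On the exercised array 23 rose and 7 fell, against 27.3% and 26%, with a median of 0.14.

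Among the genes whose products work on the particle itself, 4 of 7 rose on the exercised array and none fell. They were the ubiquitin receptor gene Adrm1 (0.64), the deubiquitinase gene Usp14 (0.41), the lid subunit gene Sem1 (0.37) and the associated thioredoxin gene Txnl1 (0.27). Pomp, which encodes the maturation factor of the core, read 5.07 and 5.09 in WT, 5.05 with exercise and 4.96 without in SPORTS. It was therefore among the genes that did not pass, with -0.03 on the exercised array.

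Ubb, a polyubiquitin gene, read 7.11 and 7.05 on the WT arrays, 7.02 on the sedentary and 7.71 on the exercised SPORTS array, where it rose by 0.63 (adjusted p = 0.0131). Its exercised array stood clear of the other 3. Rps27a, which encodes ubiquitin fused to a ribosomal protein, differed by -0.19 on the exercised array and did not pass. Nfe2l1, the transcription factor known to restore proteasome gene expression when proteasome activity is low, read 1.30 and 1.45 on the WT arrays, 1.27 on the sedentary and 1.44 on the exercised one. It overlapped between the genotypes, and the related gene Nfe2l2 fell by 0.56 on the exercised array.

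Of 10 ubiquitin ligase genes known from muscle atrophy, 6 rose and 2 fell on the exercised array. Trim63, encoding the ligase MuRF1, read 0.81 and 0.74 on the WT arrays, 0.41 on the sedentary and 2.20 on the exercised one, and rose by 1.42 (adjusted p = 0.00511). Fbxo32, encoding atrogin-1, read 0.33 and 0.43 on the WT arrays, -0.03 on the sedentary and 1.42 on the exercised one, and rose by 1.04. None of the 10 passed on the sedentary array, where the median was -0.22 against 0.89 on the exercised one. For Trim63 and Fbxo32 the exercised array was the highest and the sedentary array the lowest of the 4, the order also seen for Psme4 and Psma3. Mdm2 shared this order, reading 0.84 and 0.88 on the WT arrays, 0.72 on the sedentary and 1.82 on the exercised one. So did Mul1, reading -1.54 and -1.60 on the WT arrays, -1.91 on the sedentary and -0.45 on the exercised one. The remaining genes of the list did not. Traf6, with the largest rise of the list, differed from WT by 1.51 on the exercised and 0.92 on the sedentary array. Fbxo21 and Fbxo30 fell, by -1.10 and -0.56 on the exercised array, with -0.44 and -0.18 on the sedentary one. The shares of all genes called on the exercised array are those given above.

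**Figure D4:**
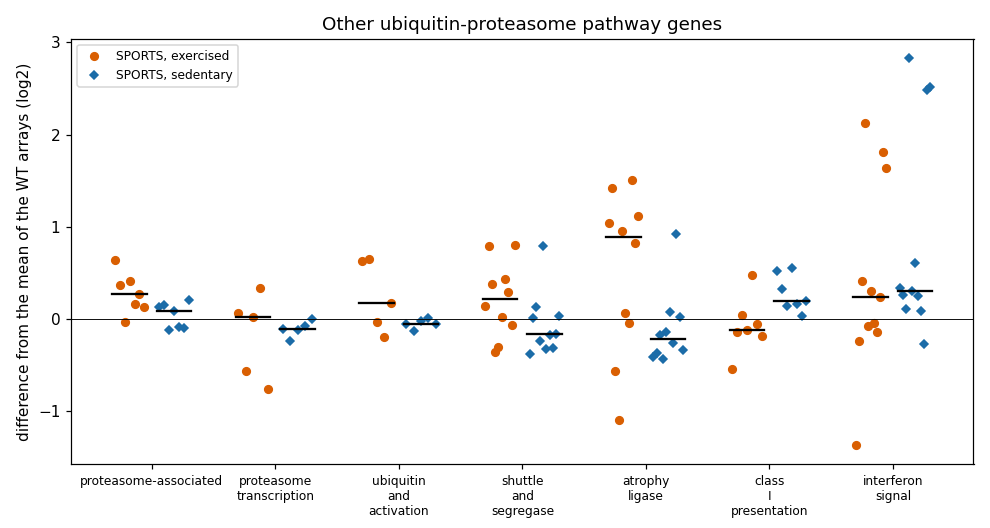
Difference from the mean of the WT arrays (log2, vertical axis) for the genes of the 7 pathway lists on the exercised (circles) and sedentary (diamonds) SPORTS arrays, with bars at the list medians. The atrophy ligases have a median of 0.89 on the exercised and -0.22 on the sedentary array, and 3 interferon genes stand above 2 on the sedentary array.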

How the data were processed

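RNA from 4 muscle samples was measured on 1-colour Agilent arrays. Per the file headers, the deposited intensity values (processed signal) came from Agilent Feature Extraction 10.7.1.1, which subtracted background and fitted a spatial detrend within each array, and no scaling between arrays is recorded. Per the labels' protocols, 100 ng of RNA was labelled with Cy3. The authors' deposited value table holds log2 values centred on each probe's median; its differences between arrays followed the scanner values (r at least 0.9999 and offset at most 0.0032 after scaling), which settled its scale, centring and direction. Its column medians were 0.02, -0.02, 0.17 and -0.15 for WT arrays 1 and 2, the exercised and the sedentary SPORTS array.

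Control spots, flagged spots and 352 of 30367 probes with no unflagged spot on some array were left out, and spots of a probe were averaged. Each array's 75th percentile was subtracted from its log2 processed signals. Names were given to probes by unversioned accession through the RefSeq table of GRCr8 (59.4% of probes), and the probe with the highest mean stood for a gene. Genes well above background on at least 2 arrays were tested with limma 3.58.1 (R 4.3.3): 2 arrays against 2, or 3 groups with the spread from the WT pair (1 residual degree of freedom). Adjusted p-values under 0.05 (Benjamini-Hochberg) were called; the fits were tested on simulated data. No probe was saturated. The WT arrays were not 1 scan deposited again: their difference had an SD of 0.17 over 1390 probes with several spots, against 0.03 from the spots. The number of arrays limits the precision.

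Members and lists were chosen with earlier results of these data known. Values per array are given for the catalytic and activator genes and for members called; where fewer than 10 passed, the 5 highest and 5 lowest differences are named; other members and list genes named complete a role or a count. Alternatives changed the dim-gene filter, background correction (normexp, offset 50, on median signals), scaling, source of values, probe rule and variance model, or left out 1 array. Some list genes are counted in their lists but not reported here by name.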

Additional observations from a re-analysis of the deposited data

Results flagged for a closer look

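For 7 of the 43 members the SPORTS arrays lay on opposite sides of both WT arrays. Each SPORTS array also differed from the WT mean by more than the largest gap between WT arrays among the members (0.11). Without that margin, 19.4% of all genes tested had the exercised array above and the sedentary array below WT, and 18.2% the reverse. The share of all genes that pass the margin was not computed. These 7 members were taken for a closer look because the difference from WT changed direction between the SPORTS arrays. This change was not tested, since each exercise state has 1 array. Exercise state cannot be told apart here from the animal or the muscle sampled. Psme4 stood 1.52 higher on the exercised than on the sedentary SPORTS array (log2), and its second probe gave the same direction. In the alpha ring, Psma3 stood 0.91 higher. Among ATPases it was Psmc6, with 0.31. In the rest of the 19S particle it was Psmd7 with 0.79, Psmd4 with 0.75 and Psmd3 with 0.33. Psme1 went the other way, with -0.42.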

How the results depend on the processing

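No paired analysis was possible because the labels give the samples no shared replicate numbers and each SPORTS group has 1 array. In SPORTS against WT, limma called 0 members under every setting that kept all 4 arrays; leaving out 1 array gave 0 to 22 members, the 22 without the sedentary and 2 without the exercised SPORTS array. For the 55 other pathway genes the range was 0 to 30. The mean change of the immunosubunit ratio ranged from -0.06 without the sedentary to 0.68 without the exercised SPORTS array, around 0.31, so it rests on the sedentary array. Members called on the sedentary array numbered 2, but 5 when only genes detected on all 4 arrays were tested, 5 with normexp, 7 with a variance trend and 0 with no filter on dim genes. On the exercised array 22 were called, but 36 with scaling by the median, 14 with quantile normalization and 7 with no filter. In exercised against sedentary SPORTS, 9 members were at least 1.5-fold apart and 1 was at least 2-fold apart. The median difference over all 43 members, 0.26, ranged from 0.12 with quantile normalization to 0.45 with scaling by the median. The cause of these changes was not tested, beyond the smaller or larger number of genes in the adjustment.

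Several named members changed direction, in no case with both directions called. In SPORTS against WT, leaving out 1 array gave -0.017 to 0.31 for Psmb7, -0.23 to 0.19 for Psme1, -0.55 to 0.97 for Psme4, -0.19 to 0.73 for Psma3, -0.10 to 0.57 for Psma7, -0.0060 to 0.59 for Psmd1, -0.12 to 0.64 for Psmd4, -0.23 to 0.56 for Psmd7 and -0.63 to 0.10 for Psmd9. Psme1 was 0.11 with scaling by the median, and the mean of all probes gave 0.074 for Psmd9 and 0.024 for Psmg4. On the sedentary array, Psmb7 was 0.030 with normexp and 0.014 with scaling by the median, Psmd1 was 0.015 and 0.025 with these and 0.0057 with cyclic loess, Psme3 was 0.0045 with scaling by the median and Psmg4 was 0.10 with the mean of all probes. On the exercised array, Psme2 was -0.057 with quantile normalization and -0.0067 with cyclic loess, and Psmd8 was 0.085 with scaling by the median. With a single slide, no batch could be compared.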
